A study of Xenopus tropicalis with 84 samples.

Results

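Genes for histone modifying enzymes, chromatin remodelling ATPases and the readers of histone marks were followed through early development of the frog *Xenopus tropicalis*. They are the rows of the expression table whose symbols start with kmt, kdm, setd, chd, hdac, ehmt, ezh, brd or ing and a digit, or with smarc and a letter from a to e. This rule, which uses names alone, found 81 of 34192 genes. They fall into 6 groups by role, namely 21 histone lysine methyltransferase genes (kmt, setd, ehmt, ezh), 16 lysine demethylase genes (kdm), 10 deacetylase genes (hdac), 13 smarc genes, 9 CHD remodeller genes and 12 bromodomain or PHD finger reader genes (brd, ing). The grouping follows the symbols, and some members, such as *setd3* and *setd6*, are better known for proteins other than histones.

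Uninjected control (UIC) embryos were set beside sibling embryos injected with 10 ng of a morpholino oligonucleotide against the start site of *nup107* mRNA (*nup107* MO), which codes for a subunit of the nuclear pore. Such an oligonucleotide acts on translation, so the level of *nup107* mRNA is no measure of its action. The controls received no injection, and an effect of injecting as such cannot be told apart from that of the oligonucleotide. PolyA+ RNA from 10 whole embryos per library, kept at 25 °C, was sequenced every 0.5 h from 2 to 12 h post fertilization (hpf), giving 21 UIC and 21 *nup107* MO libraries, 1 per time point and condition. No allele or transgene was involved, and a change in 1 cell type cannot be told apart from a change in the number of its cells.

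Histones carry acetyl and methyl groups that enzymes of these families add or remove, readers bind them, and the remodelling ATPases move or exchange nucleosomes. Deacetylases work inside larger complexes such as NuRD, SIN3 and CoREST, the Polycomb enzymes Ezh1 and Ezh2 methylate H3K27, and the Kmt2 and Setd1 enzymes methylate H3K4. The frog egg stores mRNA for many of these proteins, and the embryo's own genome is switched on at the midblastula transition. PolyA+ libraries measure polyadenylated transcripts, so a longer poly(A) tail and a larger amount of a maternal mRNA cannot be told apart.

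Expression was given by the authors as TPM, a share of all transcripts that is scaled for gene length and can be compared between genes. Read counts were not given, so library depth is unknown, and no counting error or detection limit can be stated. The ERCC spike-in share of TPM ranged from 4.46% to 6.35% across UIC libraries and from 4.60% to 5.98% across *nup107* MO libraries, and the number of genes over 0.4 TPM from 13125 to 15520 and from 13167 to 15194. A second table, named for ribozero libraries, is identical, so the values were used once, and their assignment to polyA+ rests on the names. The libraries followed their labelled times by most markers. In UIC the mesoderm gene *t* had a mean of 0.03 TPM in the earliest window (2 to 5 hpf). In the last window (9 to 12 hpf) it had 217.6 TPM. The maternal germ plasm gene *velo1* went from 551.5 to 36.2 TPM. Of the same list *dazl*, *ddx25*, *nanos1*, *gdf1* and *mos* also fell, *dazl* the least (182 to 125 TPM), but *pgat* went from 83.6 to 98.7 TPM. Of the markers of adult tissues *ins* was at 0 in all libraries and *myh6* reached at most 4.77 TPM. The targeted mRNA, *nup107*, had UIC means of 204, 160 and 40.7 TPM in the early (2 to 5 hpf), middle (5.5 to 8.5 hpf) and late (9 to 12 hpf) windows of 7 time points each, against 207.5, 203.5 and 95.2 TPM with the MO. Some libraries stood apart from their neighbours for these genes. In UIC at 6.5 hpf, 26 of 78 members were over 0.5 log2 above the mean of the 2 neighbouring libraries (33.3%, against 9.27% of all genes tested), at 6 hpf 24 were as far below (30.8%, against 7.47%), and at 9 hpf 9 were (11.5%, against 6.50%). In UIC 10 were above at 5.5 hpf (12.8%, against 3.06%), 11 above at 11 hpf (14.1%, against 4.73%) and 13 below at 11.5 hpf (16.7%, against 5.58%). In *nup107* MO 9 were above at 3.5 hpf (11.5%, against 2.86%), 13 above at 9.5 hpf (16.7%, against 4.78%), 13 below at 10 hpf (16.7%, against 4.79%) and 12 above at 10.5 hpf (15.4%, against 5.16%). In *nup107* MO, too, 8 were below at 3 hpf (10.3%, against 2.73%) and 8 above at 6.5 hpf (10.3%, against 3.52%). The libraries of 2 and 12 hpf have a neighbour on 1 side only and were not scored. The part of these libraries in the results was not tested, apart from fits that left out single time points or sets of them.

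Most of the genes were present from the first library on. Of the 81, 78 passed the filter for expression, a run of 6 consecutive libraries over 0.4 TPM in either condition. The 3 that did not pass were *chd5*, *smarca1* and *smarcd3*, with UIC means of 0.091, 0.016 and 0.027 TPM. At 2 hpf all 78 were over 0.4 TPM in UIC, and 68 were over 5 TPM. Mean levels over the 21 UIC libraries ran from 1.19 TPM (*hdac5*) to 795 TPM (*kmt5a*) with a median of 33.7 TPM, 12 genes were over 100 TPM, and 10 were under 5 TPM.

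The most abundant gene of each group by mean level was *kmt5a*, *kdm4a*, *hdac1*, *smarcd1*, *chd4* and *ing2*. *kmt5a* codes for the enzyme that places a single methyl group on H4K20. In UIC its lowest, median and highest levels were 425, 712 and 899 TPM at 2 to 5 hpf, 924, 1015 and 1065 TPM at 5.5 to 8.5 hpf, and 371.4, 714 and 964 TPM at 9 to 12 hpf. The 7 middle libraries were all above the 7 early ones, and the late libraries overlapped both. *hdac1*, the class I deacetylase of NuRD and SIN3, had lowest, median and highest levels of 507, 590 and 697 TPM early and 708, 749 and 806 TPM late, with no overlap. *kdm4a*, a demethylase of H3K9 and H3K36, had 80.2, 105 and 118 TPM early and 89.4, 99.8 and 122 TPM late. *smarcd1*, a SWI/SNF subunit, had 185, 234 and 339 TPM early and 246, 264 and 279.2 TPM late. Neither *kdm4a* nor *smarcd1* separated the early from the late libraries. *ing2*, whose PHD finger binds trimethylated H3K4 and which belongs to a SIN3 deacetylase complex, had 638, 685 and 739 TPM early and 60.3, 105 and 257.1 TPM late.

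The summed level of the 81 genes was 5710 ± 327 TPM (SD, 7 time points) early, 5540 ± 307 TPM in the middle and 4896 ± 183 TPM late in UIC. In *nup107* MO it was 5972 ± 160, 5735 ± 304 and 5090 ± 347.1 TPM, above UIC at 15 of 21 time points. In UIC, 31 of 78 genes reached their highest level at 2 to 5 hpf (39.7%, against 35.7% of all genes tested), 32 at 5.5 to 8.5 hpf (41.0%, against 34.1%) and 15 at 9 to 12 hpf (19.2%, against 30.3%). The 2 hpf library held the highest level of 24 of the 78 genes, beside 2398 of all 15011 genes tested. The 6.5 hpf library, which stood apart, held that of 19 (24.4%, against 12.2% of all genes tested).

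The normal course was tested by comparing the 7 UIC libraries of 9 to 12 hpf with the 7 of 2 to 5 hpf on log2(TPM + 1), with limma and Benjamini-Hochberg adjustment over the 15011 genes tested. By this comparison, 13 of the 78 genes were higher late and 37 were lower at an adjusted p under 0.05, beside 29.5% and 47.0% of all genes tested (76.4% in either direction). The split depends on the scaling. The median difference of all genes tested was -0.26 in TPM and -0.20 after scaling to the ERCC spike-ins, but 0.12 after median-ratio scaling, under which 30 members were higher and 24 lower (42.1% and 34.0% of all genes). The median of the members was -0.28 in TPM. For this reason only genes called the same way under all 3 scalings are described as rising or falling here. They are 13 rising and 24 falling genes, against 29.4% and 34.0% of all genes tested.

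Among the methyltransferase genes, 3 of 21 rose (*ezh2*, *setd1a*, *setd4*) and 5 fell (*ezh1*, *kmt2a*, *kmt2b*, *kmt5b*, *setd7*). *setd7*, an H3K4 monomethyltransferase that also acts on other proteins, fell furthest within the group. Its lowest, median and highest levels were 8.73, 13.7 and 17.2 TPM early, 7.12, 12.6 and 16 TPM in the middle and 0.65, 1.27 and 2.73 TPM late. The early and late libraries did not overlap, and the early mean was 9.30 times the late mean (adjusted p = 8.85e-09, limma). *setd1a*, a catalytic subunit of the COMPASS complex, had 2.30, 2.86 and 4.04 TPM early and 6.38, 8.99 and 16.1 TPM late, a mean ratio of 3.44 (adjusted p = 4.74e-06, limma). Its paralog *setd1b* was lower late in TPM by 0.76 on the log2 scale but was not called under all 3 scalings. Of the 4 *kmt2* genes with H3K4 methyltransferase activity, *kmt2a* and *kmt2b* fell by 1.16 and 1.43 on the log2 scale, and *kmt2c* (-0.40, adjusted p = 0.188, limma) and *kmt2d* (0.07, adjusted p = 0.833, limma) did not pass the test.

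The paralog pair of the Polycomb enzymes moved apart. *ezh2* had lowest, median and highest levels of 93.8, 142 and 170 TPM early and 183, 212 and 225 TPM late, with no overlap. *ezh1* had 3.85, 5.24 and 6.18 TPM early and 0.73, 1.78 and 2.91 TPM late, also with no overlap. The median ratio of *ezh2* to *ezh1* was 25.6 early and 119 late, so *ezh2* was the more abundant throughout. The H3K9 methyltransferase genes *ehmt1* and *ehmt2*, whose proteins act as a heterodimer, had a median *ehmt2* to *ehmt1* ratio of 1.46 early, 2.20 in the middle window and 1.42 late. *ehmt2* differed late from early by -0.07 in TPM (adjusted p = 0.439, limma) and by 0.39 after median-ratio scaling (adjusted p = 0.000391, limma), so the direction flips with the scaling.

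Among the demethylase genes, *kdm5b* alone rose under all 3 scalings, and 5 of 16 fell (*kdm1b*, *kdm2a*, *kdm6a*, *kdm7a*, *kdm8*). *kdm5b* codes for a demethylase of trimethylated H3K4. Its levels in UIC were 11.8, 17.1 and 23.1 TPM early and 35.3, 52.3 and 68.7 TPM late (lowest, median and highest), and the groups did not overlap (mean ratio 3.06, adjusted p = 6.7e-07, limma). *kdm6a*, an H3K27 demethylase, went from 105, 118 and 159 TPM early through 33.0, 66.2 and 108 TPM to 23.6, 26.1 and 26.9 TPM late. Each late library was below each early one, and the early mean was 4.88 times the late mean (adjusted p = 1.08e-11, limma). The paralog *kdm6b*, also an H3K27 demethylase, had a median of 13.3 TPM early and 17.1 TPM late (adjusted p = 0.0614, limma), and the median ratio of *kdm6b* to *kdm6a* was 0.11 early and 0.72 late. *kdm8*, a JmjC domain protein, had the largest fall of all 78 genes on this scale. It was at 10.1, 20.8 and 27.8 TPM early and 8.03, 20.6 and 28.8 TPM in the middle, and was at 0.75, 1.47 and 4.83 TPM late, an early mean 10.5 times the late one (adjusted p = 1.14e-07, limma).

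Among the deacetylase genes, *hdac1* rose by 0.30 on the log2 scale, and *hdac2*, *hdac3*, *hdac7* and *hdac9* fell. *hdac2*, the partner of *hdac1* in the same complexes, had 145, 172 and 220 TPM early, 54.2, 113 and 136 TPM in the middle and 25.1, 29.4 and 46.1 TPM late (lowest, median and highest). The late libraries lay below every library of 2 to 8.5 hpf, and the early mean was 5.72 times the late mean (adjusted p = 1.96e-10, limma). The median ratio of *hdac1* to *hdac2* was 3.46 early and 27.4 late. *hdac3*, the deacetylase of the NCoR and SMRT corepressors, went from a median of 114 TPM early to 24.5 TPM late, a mean ratio of 4.56. Of the class IIa deacetylase genes, *hdac4*, *hdac5* and *hdac9* had UIC means of 1.57, 1.19 and 3.96 TPM and *hdac7* one of 18.8 TPM.

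**Figure D1:**
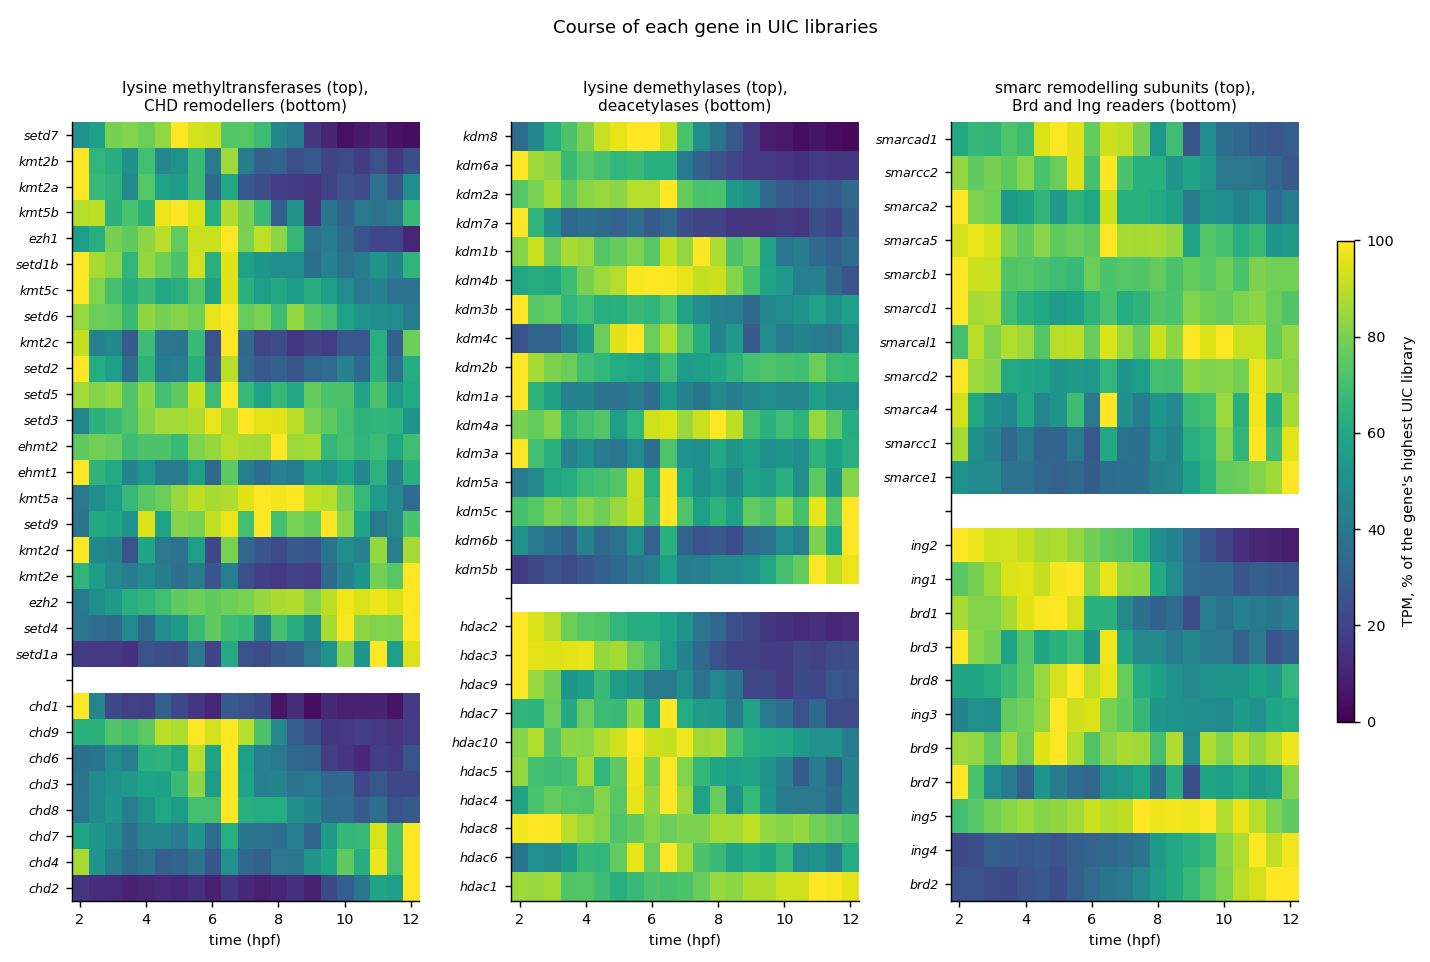
Level of 77 members in each of the 21 UIC libraries, as a percent of the gene's highest UIC library (colour), against hours post fertilization, with genes ordered by their late against early difference within each role group. Genes such as *setd7*, *kdm6a*, *hdac2* and *ing2* are brightest early, *setd1a*, *kdm5b*, *chd2* and *brd2* late, and *chd3*, *chd8* and *hdac7* have their highest level in the library of 6.5 hpf.

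Among the reader genes, *brd2* and *ing4* rose, and *brd1*, *brd3*, *ing1* and *ing2* fell. The BET proteins Brd2 and Brd3 bind acetylated histones through paired bromodomains. *brd2* had lowest, median and highest levels of 20.5, 23.1 and 25.3 TPM early, 28.4, 37.4 and 56.7 TPM in the middle and 62.5, 83.8 and 93.3 TPM late, with no overlap between any of the windows (late mean 3.53 times the early mean, adjusted p = 3.22e-10, limma). *brd3* went from 26.6, 33.5 and 45.6 TPM early to 12.0, 18.2 and 20.7 TPM late. The median ratio of *brd2* to *brd3* was 0.71 early and 4.75 late, so the order of this pair turned over. *ing4*, a subunit of histone acetyltransferase complexes of the HBO1 type, had 5.02, 6.28 and 6.89 TPM early and 14.4, 20.2 and 22.8 TPM late (mean ratio 3.15, adjusted p = 2.32e-08, limma). For *ing2*, described above, the early mean was 5.31 times the late mean (adjusted p = 2.76e-07, limma).

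Among the remodellers, *chd2*, *chd4* and *chd7* rose and *chd1*, *chd3*, *chd6* and *chd9* fell. Of the smarc genes *smarca4*, *smarcc1* and *smarce1* rose and *smarcad1* and *smarcc2* fell. For *chd4*, *smarca4* and *smarcc1* the UIC level was high in the 2 hpf library, lower at 5 hpf and higher again at 12 hpf. Their early and late libraries overlapped. In UIC at 2, 5 and 12 hpf *chd4* was at 103, 38.0 and 119 TPM. At these times *smarca4* was at 59.1, 32.8 and 55.0 TPM and *smarcc1* at 120, 44.6 and 133 TPM. Much of the high start lay in the UIC library of 2 hpf. At 2.5 hpf *chd4*, *smarca4* and *smarcc1* were at 62.3, 38.65 and 69.6 TPM in UIC. In *nup107* MO they were at 59.8, 33.9 and 65.5 TPM at 2 hpf. *chd2* had 1.49, 1.83 and 2.38 TPM early and 1.43, 6.07 and 15.5 TPM late (lowest, median and highest). The late window spanned the early one through its 9 hpf library alone, at 1.43 TPM, a library that stood apart. *chd2* was at 3.45 TPM at 9.5 hpf and at 15.5 TPM at 12 hpf (mean ratio 3.74, adjusted p = 0.00194, limma). The NuRD ATPase gene *chd4* had medians of 44.3 TPM early and 83.5 TPM late and its paralog *chd3* 4.64 and 2.38 TPM, with a median *chd4* to *chd3* ratio of 8.87 early and 39.4 late. *smarcc1* and *smarcc2*, scaffold subunits of SWI/SNF, had a median ratio of 2.75 early and 11.4 late. *smarce1*, a SWI/SNF subunit with an HMG domain, had 119, 143 and 193.4 TPM early and 213, 294 and 378.5 TPM late, with no overlap. The ratio of the ATPase genes *smarca4* and *smarca2* had a median of 1.15 early and 2.33 late. *smarcd1* (difference 0.11, adjusted p = 0.446, limma) and *smarcd2* (0.28, adjusted p = 0.0741, limma) did not pass the test, and of the imitation switch pair only *smarca5* passed the filter for expression.

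**Figure D2:**
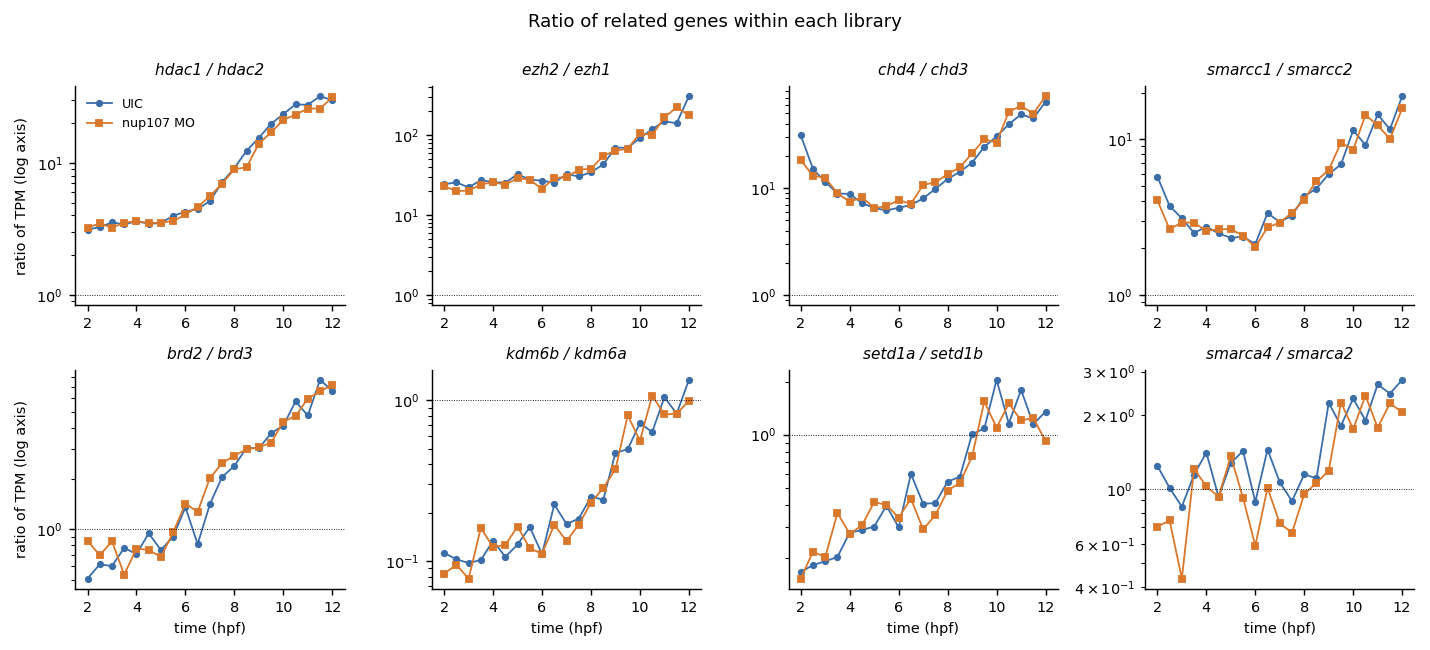
Ratio of the TPM of 2 paralogs within each library against hours post fertilization, on log axes, for 8 pairs, with UIC as circles and *nup107* MO as squares and a dotted line at 1. In UIC the median *hdac1* to *hdac2* ratio was 3.46 early and 27.4 late, that of *ezh2* to *ezh1* 25.6 and 119, and that of *brd2* to *brd3* passed 1, from 0.71 to 4.75.

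Among the 13 rising genes, the early and late libraries did not overlap for *brd2*, *ezh2*, *hdac1*, *ing4*, *kdm5b*, *setd1a* and *smarce1*. Among the 24 falling genes they overlapped for *chd3*, *kdm1b*, *kmt2a* and *kmt5b* only. The share of all genes tested without overlap is not given, so this is not shown to be a trait of the members. The libraries of a window are different times and not replicates, so their spread includes real change. Leaving out 1 time point at a time gave between 48 and 53 members called, beside 74.2% to 77.9% of all genes tested. Of the rising genes, *chd7* was lost in 10 and *smarca4* in 7 of the 14 fits.

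The effect of the *nup107* MO was first tested over the whole time course with Gaussian processes (GP), the method of the study. The log likelihood ratio (LR) compares separate curves for UIC and *nup107* MO with 1 shared curve, and a gene was called where the LR was over 0. The GP test called 9 of 78 members, 8 increased and 1 decreased in *nup107* MO, beside 7.23% of all 15011 genes tested (5.23% increased and 2.00% decreased). The increased members were *chd1* (LR 12.45), *brd7* (11.01), *kmt5b* (10.67), *smarcad1* (9.26), *brd9* (4.13), *smarca2* (2.26), *kdm1a* (2.02) and *smarca5* (0.71), and the decreased member was *kdm7a* (0.60). The nearest member under the threshold was *setd4* (-0.018). *chd1* held rank 69 among the 785 increased genes. No deacetylase gene was called by the GP test.

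*chd1* codes for a remodeller whose chromodomains bind trimethylated H3K4 at transcribed genes. In UIC its lowest, median and highest levels were 37.1, 44.2 and 199 TPM early, 10.8, 31.5 and 55.9 TPM in the middle and 7.38, 18 and 35.0 TPM late. In *nup107* MO they were 102, 164 and 202 TPM, 31.8, 90.1 and 157 TPM, and 13.5, 39.0 and 87.2 TPM. Both conditions started alike at 2 hpf (198.8 TPM in UIC, 197.9 TPM with the MO), and at 3 hpf UIC was at 44.2 TPM while *nup107* MO was at 195.4 TPM. At 7 and at 12 hpf the order was the other way (49.7 against 45.8 TPM, and 35.0 against 19.7 TPM), and *nup107* MO was above UIC at 18 of 21 times, with a ratio of the means of 2.42. The ranges of the conditions overlapped in every window.

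*brd7*, a bromodomain subunit of the PBAF form of SWI/SNF, had lowest, median and highest UIC levels of 42.2, 67.0 and 139 TPM early, 46.5, 70.4 and 86.1 TPM in the middle and 32.5, 79.5 and 113 TPM late. In *nup107* MO they were 79.5, 102 and 136 TPM, 86.1, 96.1 and 108 TPM, and 81.0, 105 and 113 TPM. Here too the first libraries were alike, at 139 and 136 TPM, and the UIC level was 42.2 TPM at 4 hpf against 92.5 TPM in *nup107* MO. *nup107* MO was above UIC at 19 of 21 times, with a ratio of the means of 1.41.

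*kmt5b*, an enzyme of H4K20 di- and trimethylation, had 35.6, 49.5 and 55.6 TPM early, 16.7, 37.5 and 52.4 TPM in the middle and 8.74, 21.5 and 37.2 TPM late in UIC. In *nup107* MO it had 57.1, 68.6 and 74.9 TPM, 34.1, 47.6 and 81.6 TPM, and 21.3, 31.3 and 32.4 TPM. In the early window every *nup107* MO library was above every UIC library, and over the course *nup107* MO was above at 19 of 21 times (mean ratio 1.45). *smarcad1*, a remodelling ATPase linked to heterochromatin and DNA repair, had UIC medians of 99.6, 115 and 43.9 TPM and *nup107* MO medians of 145, 131 and 53.7 TPM in the 3 windows. Injected embryos were above UIC at 18 of 21 times (mean ratio 1.24), and the ranges overlapped in each window.

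The other called genes differed by less. *smarca2*, an alternative ATPase of SWI/SNF, had UIC medians of 31, 29.8 and 21.2 TPM and *nup107* MO medians of 39.2, 39.4 and 25.6 TPM, with *nup107* MO above UIC at 20 of 21 times (mean ratio 1.27). *smarca5*, the imitation switch ATPase, had UIC medians of 173, 182 and 133 TPM against 206.2, 202 and 149 TPM in *nup107* MO, which was above UIC at 16 of 21 (mean ratio 1.16). *kdm1a*, the H3K4 demethylase of CoREST, was above UIC in the injected embryos at 17 of 21 times, but at 2 hpf it stood at 112 TPM in UIC against 73.0 TPM. *brd9*, a subunit of a SWI/SNF form distinct from PBAF, had medians of 122, 124 and 127 TPM in UIC and 130, 131 and 127 TPM in *nup107* MO, which was above UIC at 14 of 21 (mean ratio 1.09). For *kdm7a*, a demethylase of H3K9 and H3K27, the gap in TPM was widest in the first 2 libraries, with 43.3 TPM in UIC against 26.5 TPM with the MO at 2 hpf and 28.4 against 19.3 TPM at 2.5 hpf. At 10.5 hpf the order was the other way (6.52 TPM in UIC against 10.1 TPM), and *nup107* MO was above UIC at 7 of 21 times. The gap at 2 hpf was not particular to *kdm7a*. Other members, among them *smarcc1*, *smarca4* and *chd4*, were also lower with the MO there, while some, such as *setd3* and *ing4*, were higher. No GP fit left out 2 hpf.

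**Figure D3:**
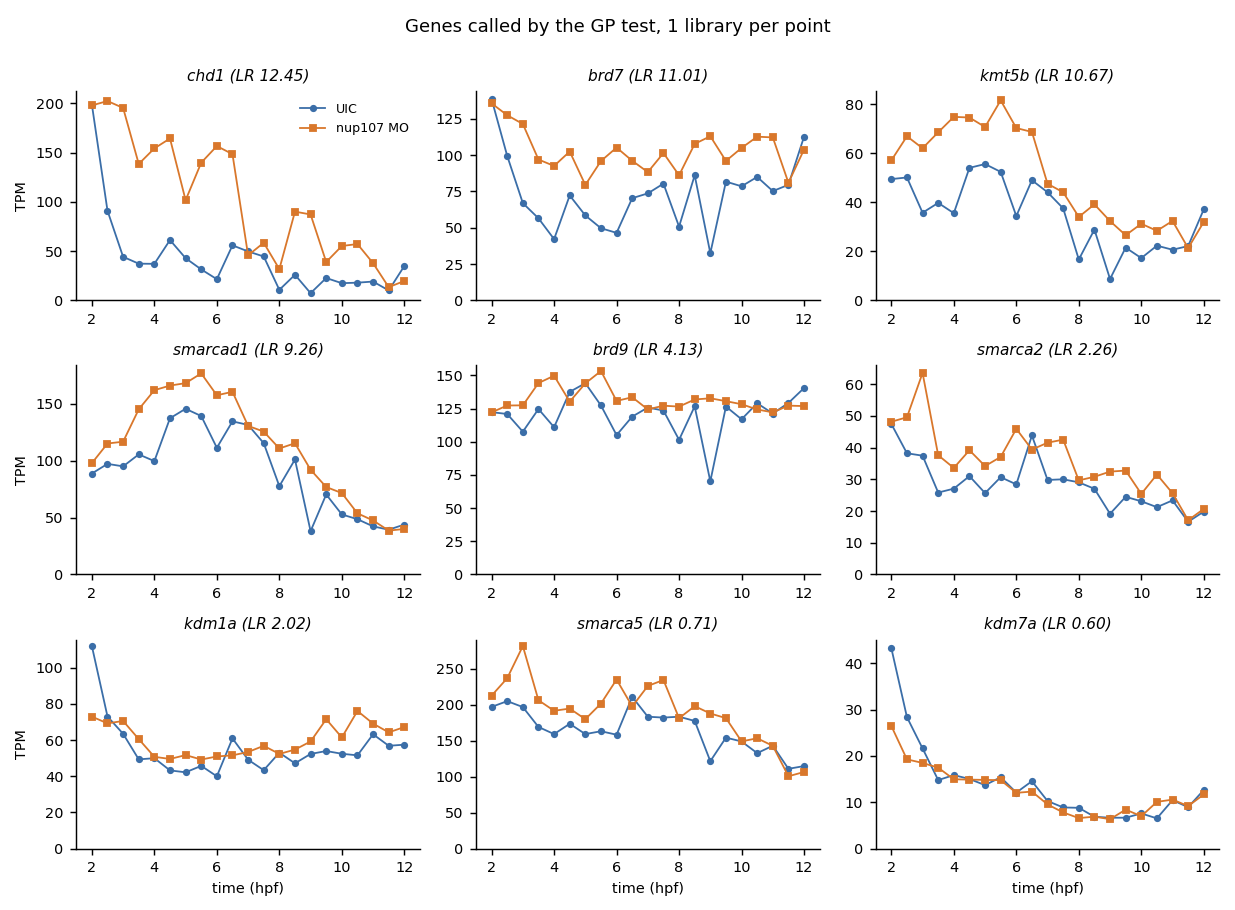
Level in TPM against hours post fertilization for the 9 members called by the GP test, 1 point per library, for UIC and *nup107* MO. For *chd1*, *brd7* and *kmt5b* the *nup107* MO points lie above UIC at 18, 19 and 19 of 21 times, and the low UIC value at 9 hpf is seen in *chd1*, *brd7*, *kmt5b*, *smarcad1* and *brd9*.

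Several of these genes dipped together in the UIC library of 9 hpf. Against the mean of the neighbouring libraries, the log2 level there was -1.59 for *chd1*, -1.41 for *kmt5b*, -1.34 for *brd7*, -1.13 for *smarcad1* and -0.84 for *brd9*, and in *nup107* MO it was 0.55, 0.00, 0.15, -0.03 and 0.02. Without 9 hpf the LR was 11.25 for *chd1*, 9.61 for *brd7*, 9.00 for *kmt5b* and 7.26 for *smarcad1*, and *brd9* was no longer called (-0.11). At 6 hpf, too, the ratio of *nup107* MO to UIC was above that of both neighbouring times in these genes. It was 7.27 for *chd1*, 2.26 for *brd7*, 2.04 for *kmt5b*, 1.41 for *smarcad1* and 1.25 for *brd9*. At 8 hpf this held for *brd7*, *kmt5b*, *smarcad1* and *brd9* (1.70, 2.04, 1.43 and 1.25) but not for *chd1* (2.96, with 3.47 at 8.5 hpf). Why these genes moved together was not tested. Leaving out 6, 8 and 9 hpf was a choice made after the data were seen. It kept 6 members called, beside 6.38% of all genes tested. All 6 were increased (*chd1* 11.41, *kmt5b* 8.70, *brd7* 8.09, *smarcad1* 6.38, *kdm1a* 1.23, *smarca2* 0.21). *brd9* and *smarca5* were not called with median-ratio scaling (LR -1.16 and -0.38), nor *kdm7a* with ERCC scaling (-3.96).

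The size of the differences came from limma on the 21 paired differences of log2(TPM + 1), with the libraries of 1 time point as a pair. Over 2 to 12 hpf it called 13 of 78 members, 11 higher and 2 lower in *nup107* MO, beside 15.6% of all genes tested (10.4% higher and 5.21% lower). The higher genes were *chd1* (1.31 ± 0.20, SE, adjusted p = 0.000125, limma), *brd7* (0.55 ± 0.09), *kmt5b* (0.55 ± 0.09), *smarca2* (0.32 ± 0.05), *smarcad1* (0.29 ± 0.06), *chd7*, *smarca5*, *kdm4c*, *kdm5b*, *kdm4a* and *ezh2*, the last 6 between 0.08 and 0.23. The lower genes were *hdac3* (-0.13 ± 0.03, adjusted p = 0.00117, limma) and *setd7* (-0.16 ± 0.05, adjusted p = 0.0386, limma). The median difference was 0.03 over the members and 0.01 over all genes tested. At an unadjusted p under 0.05 there were 24 members, beside 28.6% of all genes.

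By role, 3 of 16 demethylase genes (*kdm4a*, *kdm4c*, *kdm5b*), 2 of 21 methyltransferase genes (*ezh2*, *kmt5b*), 3 of 11 smarc genes (*smarca2*, *smarca5*, *smarcad1*), 2 of 8 CHD genes (*chd1*, *chd7*) and 1 of 12 reader genes (*brd7*) were higher. *ezh2* gave a small and regular difference, above UIC at 20 of 21 times, with medians of 142, 179 and 212 TPM in UIC against 150, 194.4 and 225 TPM (0.08 ± 0.02, adjusted p = 0.000762, limma). *kdm5b* was above UIC at 18 of 21, with medians of 17.1, 29.5 and 52.3 TPM against 19.8, 34.4 and 62.6 TPM. *chd7*, a remodeller of developmental enhancers, was above UIC at 17 of 21, with early and late medians of 23.6 and 34.6 TPM against 28.8 and 43.2 TPM. For these 3 genes the ranges of the conditions overlapped in every window, and the test rests on the mean of the paired differences. None of the 3 was called with every second time point or with means of 3 consecutive time points. With every second time point *chd1*, *smarcad1* and *smarca5* were not called either. *hdac3* was below UIC at 18 of 21 times, with medians of 114, 52.7 and 24.5 TPM in UIC against 99.9, 45.5 and 21.4 TPM. *brd9* (0.14, adjusted p = 0.0507, limma), *kdm1a* (0.14, adjusted p = 0.0536, limma) and *kdm7a* (-0.07, adjusted p = 0.454, limma), called by the GP test, did not pass here.

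**Figure D4:**
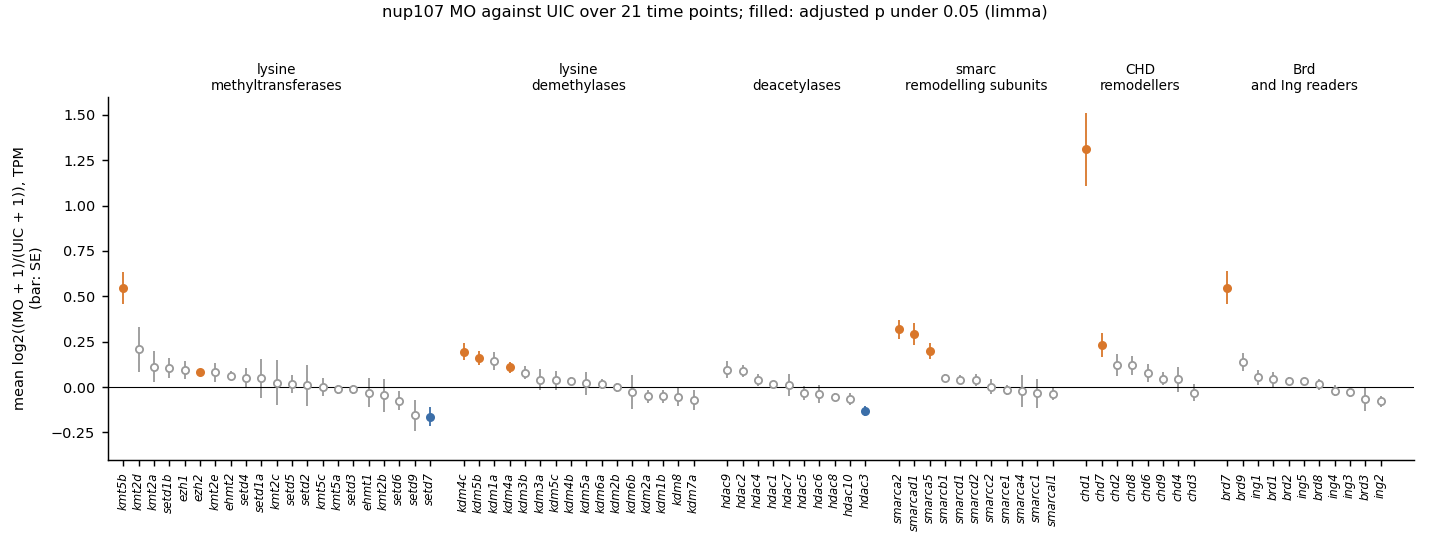
Mean difference over 21 time points, log2((MO + 1)/(UIC + 1)) in TPM, for 77 members by role group, with bars of 1 SE and filled points for the 13 members called by limma (orange higher, blue lower in *nup107* MO). *chd1* lies at 1.31, *brd7* and *kmt5b* at 0.55, and *hdac3* and *setd7*, whose calls depend on the scaling, at -0.13 and -0.16. The call of *kdm4a* depends on the scaling as well.

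Of the 13 calls, 10 were made under all 3 scalings (*brd7*, *chd1*, *chd7*, *ezh2*, *kdm4c*, *kdm5b*, *kmt5b*, *smarca2*, *smarca5*, *smarcad1*), all higher, against 7.89% of all genes higher by the same rule. ERCC scaling gave 21 members, all higher (all genes 2777 higher and 60 lower), and median-ratio scaling 10 higher and 4 lower (all genes 1186 and 1185, beside 1561 and 782 in TPM), so the call of *hdac3* and *setd7* as lower depends on the scaling. The call of *kdm4a* as higher depends on it too, since median-ratio scaling did not give it. Leaving out 1 time point at a time gave 12 to 17 members, beside 13.4% to 16.9% of all genes tested. *setd7* was lost in 12 of the 21 fits while the other 12 members were lost in none. With every second time point limma called *brd7*, *kmt5b* and *smarca2* alone, and thus not *chd1*. Without the pairing by time it called *brd7* alone, beside 0.340% of all genes. That fit has no term for time, so the course of each gene enters its spread.

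The same fit with a term for each window asked when in the time course the members differed. At 2 to 5 hpf 10 members were higher in *nup107* MO and 1 was lower, beside 8.05% of all genes tested (6.91% higher and 1.14% lower). The higher ones were *chd1* (1.40), *kmt5b* (0.57), *brd7* (0.57), *smarca2* (0.38), *kdm4c* (0.34), *chd8* (0.29), *smarca5* (0.25), *kdm5b* (0.23), *ezh2* (0.11) and *kmt5a* (0.09), and the lower one was *smarce1* (-0.13). *kdm4c*, an H3K9 demethylase gene, had UIC levels of 10.7, 17.8 and 40.3 TPM and *nup107* MO levels of 12.6, 24.6 and 47.7 TPM (lowest, median and highest), and at 7 of 7 early times the injected embryos were above UIC, as for *kmt5b*, *smarca2*, *smarca5*, *ezh2*, *kdm5b* and *chd8*. Adjusted p-values of the 11 calls lay between 0.00972 and 0.0495 (limma), and they depended on single time points. Without 3 hpf 1 member was called (*kdm4c*, adjusted p = 0.0356, limma), without 3.5 hpf 3, without 2.5 hpf 4 and without 4 or 4.5 hpf 6, while *chd1*, *kdm4c* and *smarca2* were the members called under all 3 scalings (2.89% of all genes higher by that rule). *smarca5* was lost in 15 of the 21 fits that left out 1 time point. ERCC scaling gave 6 members, all higher (all genes 973 higher and 14 lower), and median-ratio scaling 3 higher and 2 lower (all genes 436 and 459, beside 1038 and 171 in TPM).

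At 5.5 to 8.5 hpf no member passed in limma, beside 0.520% of all genes tested. The lowest adjusted p of a member was 0.0714 (limma). The windows share 1 estimate of the spread, so a gene has the same SE in each, and the adjustment was made per window. A call in 1 window and none in another is therefore no test of a change between them. At an unadjusted p under 0.05 there were 18 members, 12 higher and 6 lower, beside 15.4% of all genes. *chd1* and *kmt5b* were above UIC at 6 and 7 of the 7 middle times, with ratios of the means of 2.80 and 1.47, and *brd7* at 7 of 7 with a ratio of 1.49. Without 9 hpf 4 members passed, and without 7 or 12 hpf 1 did.

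At 9 to 12 hpf 5 members were higher in *nup107* MO and 4 lower, beside 10.8% of all genes tested (5.62% higher and 5.20% lower). *chd1* (1.13, adjusted p = 0.046, limma), *kmt5b* (0.51), *smarca2* (0.29), *kdm1a* (0.27) and *hdac2* (0.18) were higher, and *setd7* (-0.41, adjusted p = 0.000438, limma), *ing2* (-0.18), *hdac8* (-0.15) and *kmt5a* (-0.13) were lower. *kdm1a* had UIC levels of 51.5, 53.9 and 63.2 TPM and *nup107* MO levels of 59.2, 67.2 and 76.1 TPM and was higher at 7 of 7 times. *hdac2* was likewise higher at 7 of 7, with 25.1, 29.4 and 46.1 TPM in UIC against 26.2, 34.2 and 51 TPM. Both pairs of ranges overlapped. *hdac8*, a class I deacetylase that acts on cohesin, was lower at 7 of 7, with 67.8, 76.0 and 83.9 TPM in UIC against 61.4, 66.2 and 74.7 TPM. *setd7*, too, was lower at 7 of 7, with 0.65, 1.27 and 2.73 TPM in UIC against 0.30, 0.48 and 1.72 TPM, levels at which the log2(TPM + 1) scale understates a change.

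*chd1*, *kmt5b*, *hdac2*, *ing2* and *setd7* are among the genes that fell in UIC over the time course. At 9 to 12 hpf *chd1*, *kmt5b* and *hdac2* stood above their UIC level in *nup107* MO, and *ing2* and *setd7* below theirs. Of the 21 fits that left out 1 time point, *chd1* was lost in 15, *kmt5b* and *smarca2* in 14 each, *kdm1a* in 13, and *hdac2* and *ing2* in 1 each. Without 9 hpf the differences of *chd1*, *kmt5b* and *smarca2* were 0.75, 0.30 and 0.22 (adjusted p = 0.175, 0.170 and 0.164, limma) and *kdm1a* was not called either, without 10.5 hpf 3 members passed (*hdac8*, *kmt5a*, *setd7*), without 11.5 hpf 10. ERCC scaling left *kmt5b* (0.58) and *setd7* (-0.37; all genes 689 higher and 90 lower), with *chd1* at 1.197, *smarca2* at 0.36, *kdm1a* at 0.34 and *hdac2* at 0.25 (adjusted p = 0.0508, 0.0599, 0.0613 and 0.0534, limma) and *ing2*, *hdac8* and *kmt5a* at -0.11, -0.074 and -0.054 (adjusted p = 0.266, 0.498 and 0.594, limma). Median-ratio scaling gave 4 higher and 5 lower (all genes 779 and 889, beside 844 and 780 in TPM), and *setd7* alone was called under all 3 scalings (0.600% of all genes lower by that rule).

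**Figure D5:**
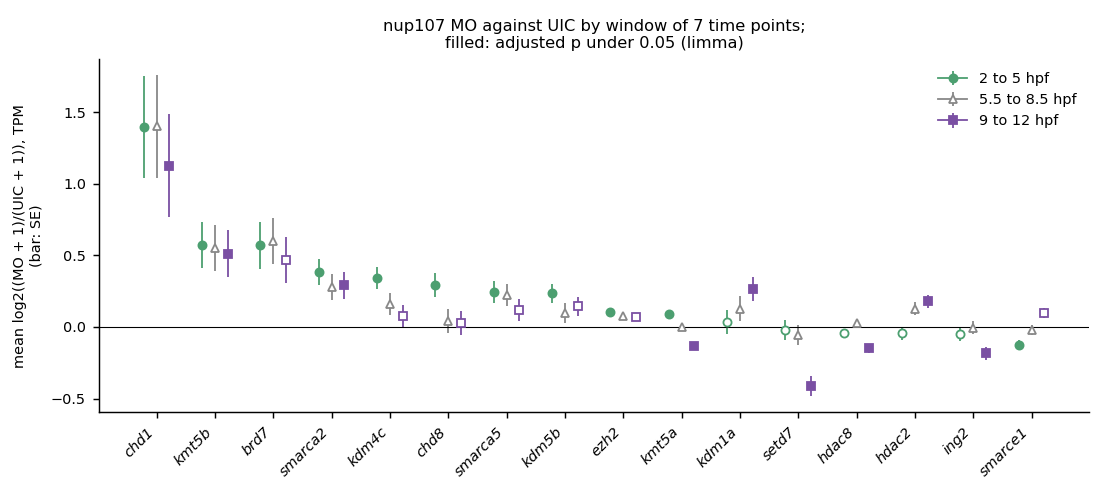
Mean difference, log2((MO + 1)/(UIC + 1)) in TPM, in each window of 7 time points for the members called in any window by limma, with bars of 1 SE and filled symbols for called differences. *chd1* lies at 1.40 early and 1.13 late, and *setd7* at -0.41 late; with ERCC scaling only *kmt5b* and *setd7* were called late.

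Whether the difference itself changed was tested as the late minus the early term. It called 3 of 78 members, beside 3.58% of all genes tested, namely *kmt5a* (-0.22 ± 0.04, SE, adjusted p = 0.00138, limma), *setd7* (-0.40 ± 0.10, adjusted p = 0.0271, limma) and *smarce1* (0.22 ± 0.05, adjusted p = 0.0148, limma). *kmt5a* was above UIC at 6 of 7 early and 1 of 7 late times, with UIC medians of 712 and 714 TPM and *nup107* MO medians of 741 and 627 TPM. *smarce1* was above UIC at 0 of 7 early and 6 of 7 late times, with medians of 143 and 294 TPM in UIC against 135 and 327 TPM. With ERCC scaling the differences were -0.21, -0.41 and 0.23 (adjusted p = 0.337, 0.167 and 0.406, limma) and no member passed (6 at an unadjusted p under 0.05), and *setd7* was lost in 5 of the 21 fits that left out 1 time point.

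The course within *nup107* MO embryos was described with the same test as in UIC. At 9 to 12 hpf against 2 to 5 hpf, 15 of 78 members were higher and 41 lower, beside 29.5% and 48.7% of all genes tested. The median ratio of *hdac1* to *hdac2* in *nup107* MO was 3.50 early and 23.1 late, that of *ezh2* to *ezh1* 23.9 and 105, and that of *brd2* to *brd3* 0.75 and 4.71. Each of these ranges overlapped the UIC range of the same window. The ratio of *smarca4* to *smarca2* had medians of 0.93, 0.92 and 2.05 in *nup107* MO against 1.15, 1.11 and 2.33 in UIC. Its ranges in the 2 conditions also overlapped in every window, and the difference was not tested.

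Other genes of the same complexes were counted from a list of 123 symbols, of which 111 were in the table and 108 were tested. The GP test called 7, all increased, beside the 5.23% given above. They were *rsf1* (LR 13.7), which codes for a partner of the Smarca5 ATPase, *arid4a* (7.82) and *arid4b* (7.55), subunits of SIN3 complexes, *ss18* (5.45), a SWI/SNF subunit, *ruvbl1* (3.40), an ATPase of INO80, *nsd1* (2.64), an H3K36 methyltransferase gene, and *kat2a* (1.43), an acetyltransferase gene. By limma over 2 to 12 hpf 18 were higher and 3 lower (*pcgf2* -0.14, *men1* -0.08, *suv39h2* -0.08), beside 10.4% and 5.21% of all genes tested.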

How the data were processed

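PolyA+ RNA-seq of 21 UIC and 21 *nup107* MO libraries was used. Reads had been mapped to Xt9.1 plus the ERCC sequences (STAR and RSEM are named in the submitters' processing notes), and the authors deposited TPM per gene, without the dinucleotide correction that the study applied before its test. The 42 of 84 samples labelled ribozero were not analysed here. UIC and *nup107* MO libraries of 1 time point come from siblings collected together and were paired by time.

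Genes with a run of 6 consecutive libraries over 0.4 TPM in UIC or *nup107* MO were tested (15011), without the 92 ERCC entries. The GP test used a square-root transform (alpha 1, beta 1000), a Matern 5/2 kernel, normal priors on the log hyperparameters (means 3, 2 and 0, SDs 2, 4 and 4) and 51 length scales. limma used log2(TPM + 1) with a trend, and fold changes on this scale understate low genes. Calls were at an LR over 0 and at an adjusted p under 0.05 (Benjamini-Hochberg). With 1 library per time point, p-values measure the spread between time points, which are not independent. The median lag-1 autocorrelation of the paired differences was 0.01 over all genes tested, with 5th and 95th percentiles of -0.37 and 0.45.

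On simulated data (15011 genes, 200 changed 2-fold), the GP test recovered 198 and called 93 unchanged genes, limma over all time points 198 and 8, and limma at 2 to 5 hpf 186 and 8. Differences under 2-fold, the size of most of those called here, were not tested in this way. How many of the calls on the real libraries are wrong was not tested.

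The members, gene lists and rules were chosen with earlier results of these data known. Named genes were all members called by the GP test, the most abundant of each role group, the 5 largest rises and 5 largest falls in UIC and fixed paralog groups; the other members named were chosen for their calls. The values of 1 member are not reported here, and it stays in the counts. Alternatives covered the scaling, filter, LR threshold, pseudocount, centring, pairing and sets of time points. Software was Python 3.11.15, numpy 2.4.6, pandas 2.3.3, numba 0.67.0, matplotlib 3.10.9, R 4.3.3 and limma 3.58.1.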

Additional observations from a re-analysis of the deposited data

Results flagged for a closer look

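For 3 members the limma contrast found that the difference between *nup107* MO and UIC itself changed from 2 to 5 hpf to 9 to 12 hpf. The late minus early difference was -0.22 for *kmt5a* (adjusted p = 0.00138, limma), -0.40 for *setd7* (adjusted p = 0.0271, limma) and 0.22 for *smarce1* (adjusted p = 0.0148, limma). Over fits without 1 time point it lay between -0.24 and -0.21, between -0.44 and -0.36 and between 0.20 and 0.25, with largest adjusted p-values of 0.0051, 0.0618 and 0.0384 (limma). With ERCC scaling the differences were -0.21, -0.41 and 0.23 (adjusted p = 0.337, 0.167 and 0.406, limma), and no member passed this contrast (6 at an unadjusted p under 0.05).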

How the results depend on the processing

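The GP test called 9 members and 7.23% of all genes tested. With an LR threshold of 3 it called 5 members and 3.82%, with each gene centred on its mean 15 and 17.3%, and without the filter on low values 22.9% of all genes. The libraries of 1 time point were taken as pairs. limma without the pairing (no replicate block) called 1 member (*brd7*) and 0.340% of all genes in place of 13 and 15.6%. Without the pairing there is no term for time, and the course of each gene enters its spread. Every second time point gave 3 members (*brd7*, *kmt5b* and *smarca2*) and 2.32%. Means of 3 consecutive time points gave 8 and 4.93% (without *chd7*, *ezh2*, *kdm4c*, *kdm5b* and *setd7*). ERCC scaling called 21 members over 2 to 12 hpf, 6 at 2 to 5 hpf, 2 (and 5.19% of all genes) at 9 to 12 hpf, and 0 (and 0.207%) for late minus early, and 0.133% of all genes at 5.5 to 8.5 hpf. Median-ratio scaling called 5 members at 2 to 5 hpf and 0.266% of all genes at 5.5 to 8.5 hpf, and it turned the UIC late against early difference of *ehmt2* to 0.39, *hdac8* to 0.34, *kdm4a* to 0.44 and *smarca5* to 0.026, the last called lower in TPM. Leaving out 1 time point in turn gave 1 to 14 members and 3.48% to 10.3% of all genes at 2 to 5 hpf, 0 to 4 members and 0.207% to 2.99% at 5.5 to 8.5 hpf, 3 to 10 members and 6.62% to 11.4% at 9 to 12 hpf, and 2 to 4 members and 1.97% to 4.92% for late minus early. Left out after the data were seen, 6, 8 and 9 hpf gave 12 members and 12.4% of all genes over 2 to 12 hpf (*chd7* and *setd7* lost, *ehmt2* gained). Without 7 and 9 hpf there were 12 members and 12.2% of all genes (*kdm4a* and *setd7* lost, *brd9* gained). Apart from the missing time term in the fit without the pairing, the cause of these shifts was not tested. Of the 6651 values for single genes under the alternatives, 95.6% kept their direction and side of the threshold, and 3.26% lost the call. Both shares are over all values, with those of genes not called, so they do not measure how stable the calls were. The unknown depth limits statements on genes of low TPM such as *setd7*.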
